A study of Mus musculus with 2 samples.

Results

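The spots described here are the 150 of 2485 tissue spots of a mouse brain section that scored highest for the genes Cartpt, Baiap3, Tcf7l2, Lhx9 and Tac1, and they are called high-score spots below. They were selected on the measured UMIs of these 5 genes. A spot was eligible if it lay over tissue in the wild-type list of spot positions and held at least 500 unique molecular identifiers (UMIs, each counted as a captured molecule). It also had to hold fewer than 3 UMIs of Tph2, the serotonin synthesis enzyme, which left 2362 eligible spots. The score was the mean over the 5 genes of the natural log of 1 plus the UMIs per 10000 UMIs of the spot. Each spot is a small region that can hold several cells of different types, so all values below describe regions and not cells.

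The series holds brain sections of 6-month-old male mice, profiled with Visium CytAssist, an assay in which ligated probe pairs are captured on a slide of barcoded spots. Of its 2 samples, 1 is labelled G2-3, with the genotype A53T alpha-synuclein, and 1 is labelled wild type. Both were deposited with the same count matrix, so the data are 1 library of 1 section, and no genotype was assigned to it and no comparison of genotypes was made. The tissue label is brain, and the strain, the promoter of the transgene and the plane of section were not stated in the labels. The high-score spots summed to 952212 UMIs, with a median of 6196.5 UMIs per spot and a range of 1235 to 13689. The other 2335 tissue spots summed to 20045735 UMIs, with a median of 6739. With 1 library there is no replicate error, so no test is given, and each interval is an exact 95% interval that covers counting error only.

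Cartpt encodes the CART peptide, Tac1 encodes the precursor of substance P, and Lhx9 and Tcf7l2 encode transcription factors that are active in neurons of the thalamus and the midbrain. Baiap3 encodes a protein of dense-core vesicle release, the route by which neurons secrete peptides. The dorsal midbrain holds the superior and inferior colliculus, which map vision, sound and touch. Beneath them lie the periaqueductal grey, which takes part in pain control and defence, and near it the oculomotor and Edinger-Westphal nuclei, whose neurons move the eye, set the pupil or secrete the peptides CART and urocortin.

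The score ran from 0.806 to 2.08 in the high-score spots, with a median of 1.02, against a median of 0.108 in the other tissue spots. These values chose the spots and are given only as a description. The 10 spots just inside the threshold scored 0.806 to 0.823, and the next 10 scored 0.798 to 0.805. As a further description of the choice, 13 of the 150 spots had a UMI of all 5 genes, 55 had 4 of them, 64 had 3 and 18 had 2, and none had fewer.

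On the grid the high-score spots did not form a single field. They fell into 24 groups of touching spots, of which 4 held at least 10 spots. Each of those 4 is called here by a gene that was high in it against the other high-score spots. The Six3 patch held 53 spots in grid rows 35 to 48, and the Zic1 patch held 47 spots in rows 56 to 63. The Cartpt patch held 13 spots in rows 60 to 63, and the Thsd7a patch held 10 spots in rows 50 to 55. The remaining 27 spots lay in 20 small groups of at most 3, of which 15 were single spots. The nearest spots of the Six3 and Zic1 patches were 7.21 spot steps apart, while the Zic1 and Cartpt patches came within 2.65 steps.

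**Figure D1:**
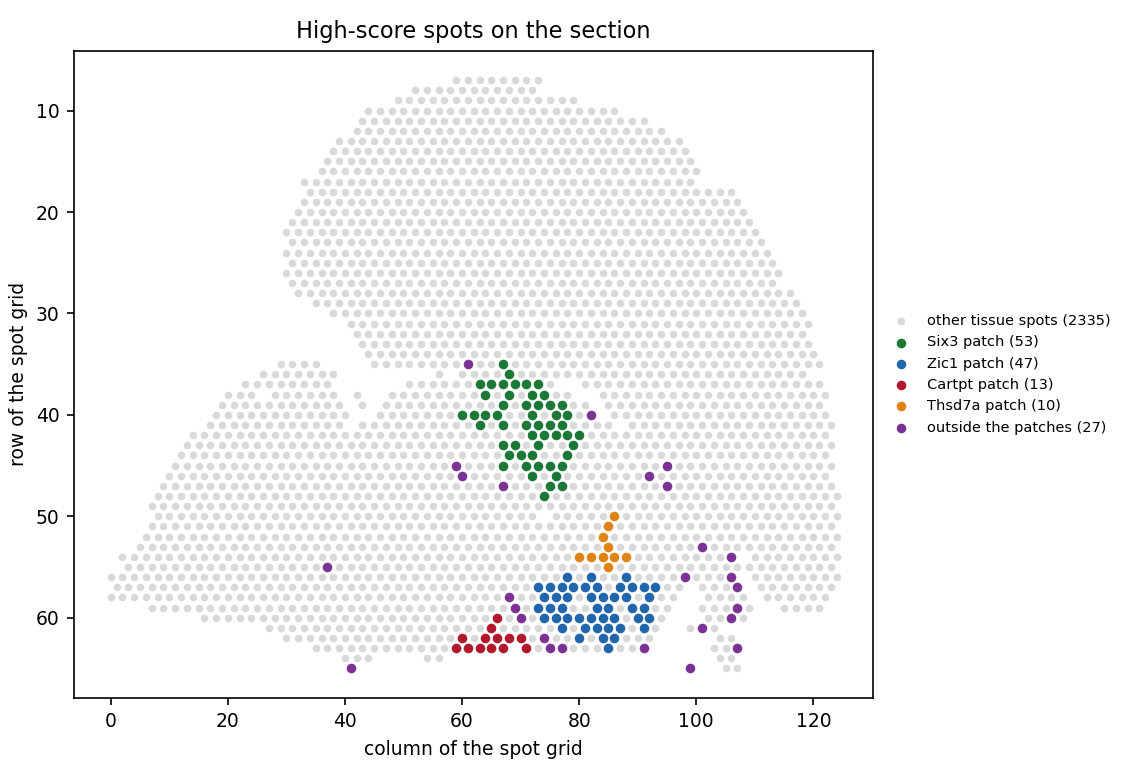
Each point is a tissue spot at its row and column on the slide's grid, coloured by patch, with the 2335 other tissue spots in grey. The 53 spots of the Six3 patch lie apart from the 47 of the Zic1 patch, and the 13 spots of the Cartpt patch sit in rows 60 to 63, near the last row of the marked tissue.

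The 5 score genes, which chose the spots and are described here only, were split between the patches. Cartpt had 1797 UMIs in the high-score spots, and 1616 of them (89.9%) came from the 13 spots of the Cartpt patch. There the lowest spot held 3 Cartpt UMIs, the median spot 28 and the highest 472. In the Six3 patch Cartpt had 12 UMIs in 53 spots, and only 75 of all 150 spots had any. Tcf7l2 was placed the other way, with 149 UMIs in the Six3 patch, 115 in the Zic1 patch and 1 in the Cartpt patch. The Cartpt patch was therefore chosen through Cartpt and Baiap3, with 4 Lhx9 and 10 Tac1 UMIs. Lhx9 was near the same level in the Six3 patch (156 CPM, the UMIs of a gene per 1000000 UMIs of the set) and the Zic1 patch (140 CPM).

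**Figure D2:**
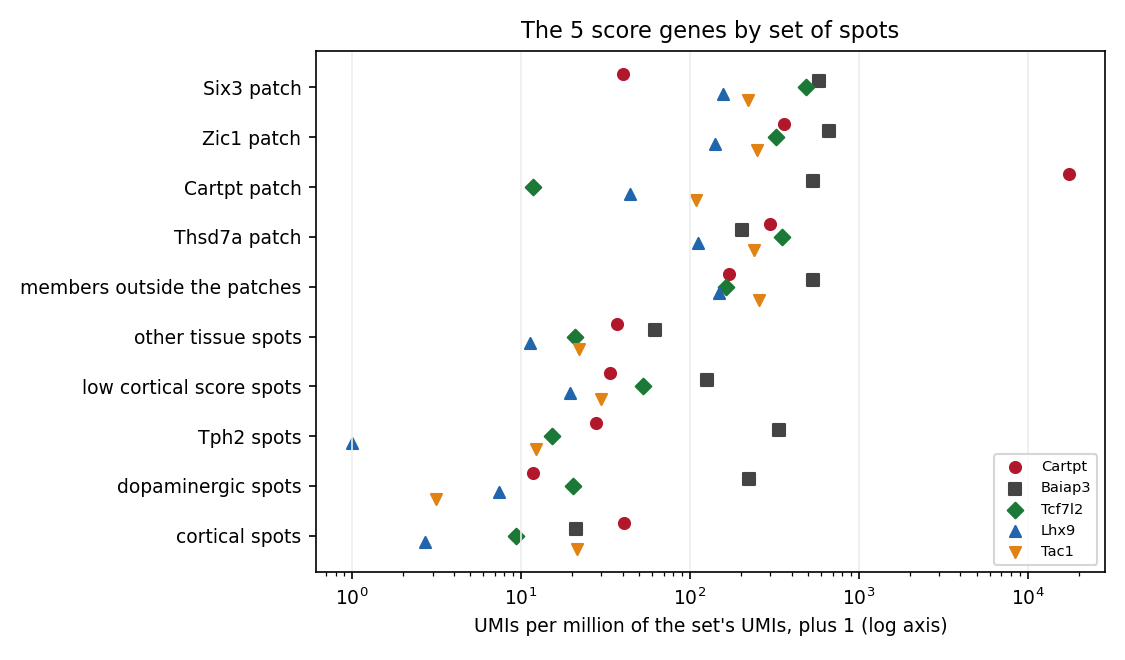
Each point is the level of a score gene in a set of spots, in CPM plus 1, on a log axis. Cartpt reached 17542 in the Cartpt patch and 39.0 in the Six3 patch, while Tcf7l2 was at 10.9 and 484 in the same patches.

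The label of a dorsal midbrain type was set against 18 genes listed for the tectum. They were scarce in this section, and only 5 passed the minimum of 100 UMIs over both sets of spots. Of those 5, Gata3, a regulator of inhibitory midbrain neurons, was at least 2-fold higher than in the other tissue spots (48 against 311 UMIs, log2 ratio 1.70, interval 1.23 to 2.14). Bhlhe22 and Lhx2, which cortical neurons also express, were at least 2-fold lower, with log2 ratios of -1.41 and -1.28. The median of the 5 was 0.52.

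With a minimum of 20 UMIs 16 of the 18 genes were measured, and the count changed. Of these, 12 were at least 2-fold higher with an interval above equal levels (3.34% of all genes at this minimum) and 2 were lower (3.98%), with a median of 2.36 beside 0.04 over all genes. The genes named next were chosen after their values were seen. Pou4f1, a transcription factor gene of tectal neurons, missed the minimum of 100 by 4 UMIs, with 36 against 60 (3.66, 3.02 to 4.28). It was found in 30 of 150 spots against 51 of 2335 (2.18%), and in 3 of 500 cortical spots, whose median depth was 10873.5 UMIs. When thinned to 1000 UMIs per spot the first 2 shares were 2.0% and 0.471%. Of the 215 tissue spots that touch a high-score spot 24 (11.2%) had Pou4f1, with 29 of the 60 UMIs. Their thinned share was 2.33%, so Pou4f1 was not particular to the high-score spots. Pou4f2 had 11 against 29 UMIs (3.00, 1.85 to 4.04), Tfap2d 7 against 27 (2.45, 1.00 to 3.68), Pax7 6 against 20 (2.66, 1.05 to 4.03) and Tfap2b 5 against 16 (2.72, 0.91 to 4.23). Tfap2b and Otx2 (5 against 17 UMIs), both among the 12, passed the minimum of 20 only through their UMIs in the high-score spots.

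Against 1000 tissue spots of low cortical score, a set taken for low levels of 5 cortical genes, the tectal genes were less far apart. At the minimum of 100 UMIs 0 of 3 were 2-fold apart, with a median of -0.01. At 20 UMIs 2 of 15 were higher by the same rule (1.59% of all genes), Pou4f1 (36 against 54 UMIs, 1.88, 1.23 to 2.52) and Pou4f2 (1.53, 0.33 to 2.65), and none was lower (3.78%), with a median of 0.80. Of the 36 Pou4f1 UMIs 19 lay in the Zic1 patch, 9 in the Six3 patch and 2 in the Cartpt patch, while all 5 Otx2 UMIs lay outside the 4 patches. Most of the tectal ratios rest on few UMIs per gene. Because the spots lie in separate patches, they are called here by their rule and the patches by genes high in them.

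A second list, of the periaqueductal grey and the Edinger-Westphal nucleus, had 8 of its 12 genes measured. Of these, 4 were at least 2-fold higher than in the other tissue spots and 1 was lower, with a median log2 ratio of 1.14 beside 0.01 over all genes, where 2.93% of genes were higher and 6.43% lower. Summed, the list was lower in the high-score spots, at 712 against 839 CPM, with Cck among its genes (-1.66). Against the spots of low cortical score 2 of 5 were higher and none lower, with a median of 0.82. Adcyap1, among the higher, passed the minimum count there only through its UMIs in the high-score spots. Higher than in the other tissue spots were Esr1 (37 against 158 UMIs, 2.30), Adcyap1 (51 against 293, 1.87), the mu opioid receptor gene Oprm1 (61 against 458, 1.49) and the serotonin receptor gene Htr2c (1.47). The thalamic list had 1 of 9 higher and 1 lower, with a median of 0.36.

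Across the whole panel, 10997 genes were measured with at least 100 UMIs over the high-score and the other tissue spots. Of these, 322 (2.93%) were at least 2-fold higher in the high-score spots and 707 (6.43%) at least 2-fold lower. For 312 of the higher genes (2.84%) and 523 of the lower (4.76%) the counting interval also left out equal levels. Against other spots matched on depth, 4 for each high-score spot, 57 were higher and 225 lower of the 7408 genes that then passed the minimum. In bulk regions such as these, fewer cells of a type and less RNA per cell cannot be told apart.

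The leading gene over the other tissue spots was Six3, a homeobox transcription factor of the forebrain and eye field. It had 141 UMIs in the high-score spots and 278 in the other 2335, which is 148 against 13.9 CPM and a log2 ratio of 3.42 (3.11 to 3.71). Of the 141 UMIs, 92.2% lay in the Six3 patch. Without that patch the log2 ratio was 0.30, so the lead of Six3 rested on it. Next came Slc18a3, the vesicular transporter of acetylcholine, with 39 against 84 UMIs and a log2 ratio of 3.29 (2.70 to 3.85). All 39 lay in the Cartpt patch. Prph, which encodes the intermediate filament peripherin of neurons with axons that leave the brain, had 42 against 154 UMIs (2.52, 1.99 to 3.02), and 97.6% of the 42 lay there too. Without the Cartpt patch Prph was lower than in the other spots, at -2.72, with 1 UMI left in the high-score spots.

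Other leading genes were spread over several patches. Arhgap36, a regulator of protein kinase A and hedgehog signalling, had 67 against 214 UMIs (2.72, 2.30 to 3.12), with 29.9% in the Six3 patch, 22.4% in the Zic1 patch and 34.3% in the Cartpt patch. Slc17a6, which loads glutamate into vesicles in many neurons below the cortex, had 99 against 492 UMIs (2.08, 1.76 to 2.40), with 38.4% in the Six3 and 41.4% in the Zic1 patch. The transcription factors Lhx5 (2.39) and Foxp2 (2.29), the estrogen receptor gene Esr1 (2.30) and the GABA receptor subunit gene Gabrq (2.42) were also among the 15 leading genes. BC035947, Bnc2, Insyn2b, AW551984, Amigo2 and Susd2 made up the rest, with log2 ratios of 2.74, 2.75, 2.81, 2.40, 2.23 and 2.15.

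The genes at the lower end were those of cortical and hippocampal neurons. Slc17a7, the cortical vesicular glutamate transporter, had 245 UMIs against 70246, a log2 ratio of -3.77 (-3.95 to -3.59). Its median was 1 UMI per high-score spot, with a highest value of 9, against a median of 14 in the other tissue spots. The others among the 10 lowest included Itpka (-4.03), Neurod2 (-3.09), Icam5 (-2.96), Npy (-3.24), Neurod6, Cox6a2 and Igfn1. Neurod6 had 2 UMIs in the high-score spots (-4.68, -7.73 to -2.83), Cox6a2 had 3 (-4.34, -6.62 to -2.79) and Igfn1 had 4 (-4.04, -5.91 to -2.68). Col5a1 had no UMI in the high-score spots against 460, which at a floor of 3 counts over the set makes it at least 7.28-fold lower. Of 12 measured genes listed for cortical and hippocampal neurons, 10 were at least 2-fold lower (6.43% of all genes) and none higher (2.93%). Their median log2 ratio was -2.90 beside 0.01 over all genes. The immediate early genes, switched on by neuronal activity, had 5 of 6 lower (median -1.80), and the postsynaptic genes had 9 of 20 lower (median -0.90). Both lists hold genes that cortical neurons express strongly.

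The set of low cortical score takes most of that contrast away. Its 1000 spots summed to 5263595 UMIs with a median of 4661 per spot, and 196 of them touched a high-score spot. Of 8319 genes measured against it, 61 (0.733%) were at least 2-fold higher in the high-score spots and 279 (3.35%) at least 2-fold lower. Six3 (141 against 255 UMIs, 1.61, 1.30 to 1.91) and the transcript AW551984 (86 against 138, 1.78, 1.38 to 2.18) led again. Without the Six3 patch, Six3 was instead lower than in this set (-1.51). Adcyap1, the precursor of the peptide PACAP, had 51 against 87 UMIs (1.70, 1.17 to 2.21), and Penk, the precursor of enkephalins, had 64 against 134 (1.40, 0.95 to 1.84). Of these, Adcyap1 passed the minimum count only through its UMIs in the high-score spots. Hap1, the huntingtin-associated protein that partners with the product of Ahi1, had 768 against 1797 UMIs (1.24, 1.12 to 1.36), and Ahi1 itself had 509 against 1217 (1.21, 1.06 to 1.36). Gap43 and Basp1, which encode growth cone proteins, both had a log2 ratio of 1.04. Nrgn was higher too (1.44), but it is among the genes for whose low level the comparison spots were taken, so this value is not read further. Arhgap36 (1.56), 6330403K07Rik (1.36), Doc2a (1.42), Plk5 (1.23), Fxyd6 (1.47) and Rasgrf2 (1.35) completed the 15 leading genes.

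Genes lower than in the spots of low cortical score marked other places and cells of the subcortex. Slc6a3, the dopamine transporter, had 2 against 239 UMIs (-4.43, -7.49 to -2.57), and the hindbrain patterning genes Hoxa4 and Hoxb5 had none against 150 and 111, at least 9.04-fold and 6.69-fold lower at the floor of 3 counts. Mgp (-2.95) and Ptgds (-2.12), of vessels and meninges, were lower, and so were the matrix genes Bgn (2 UMIs, -3.85, -6.90 to -1.97) and Col27a1 (2 UMIs, -3.88, -6.94 to -2.01). Gfap, the astrocyte filament, had 160 against 4187 UMIs (-2.24, -2.48 to -2.02). Mapk13 (1 UMI, -4.88, -10.2 to -2.38) and Cdh23 (6 UMIs, -3.22) completed the 10 lowest. All 6 measured genes of the meninges list were at least 2-fold lower (median -2.19), and so were all 4 of the blood list (median -1.77), with Hba-a2 at 1659 against 32152 UMIs. Over all genes 3.35% were at least 2-fold lower than in the spots of low cortical score. The summed blood genes were at 2635 CPM in the high-score spots, 3365 in the other tissue spots and 8867 in the spots of low cortical score. Of the microglial genes 1 of 11 was lower, with a median of -0.85, and the oligodendrocyte genes had 2 of 12 lower, with a median of -0.56. The part of these cells in the other ratios was not tested.

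**Figure D3:**
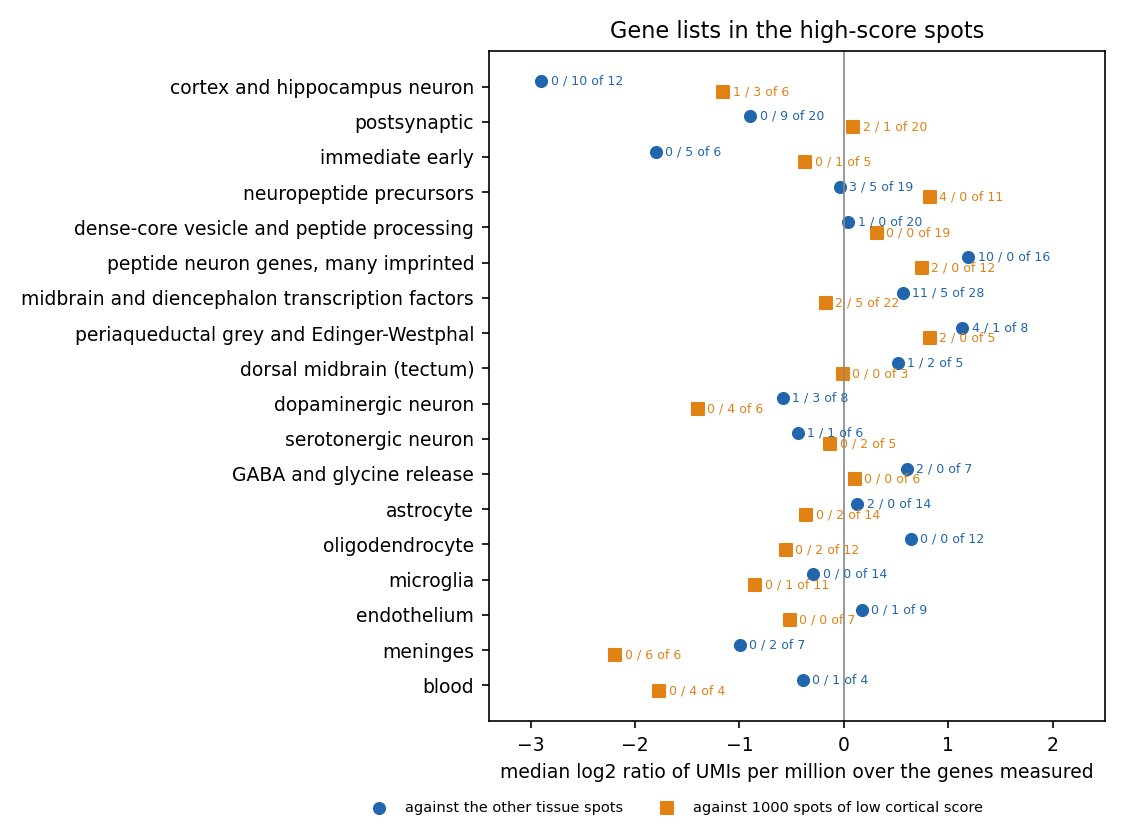
Each point is the median log2 ratio of a gene list in the high-score spots, circles against the other tissue spots and squares against spots of low cortical score, with the numbers of genes at least 2-fold higher and lower of those measured beside it. The list of peptide neuron genes has a median of 1.19 against the other tissue spots and 0.75 against those of low cortical score, while the cortical list is at -2.90 and -1.16.

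A list of genes of peptide-secreting neurons, many of them imprinted, was largely higher in the high-score spots. Against the other tissue spots 10 of its 16 measured genes were at least 2-fold higher and none lower, with a median of 1.19, where 2.93% of all genes were higher and 6.43% lower. Those 10 were Ngb (2.30), Dlk1 (1.53), Zcchc12 (1.47), Magel2 (1.40), Ahi1 (1.32), Usp29 (1.28), Nap1l5 (1.20), Ndn (1.20), Hap1 (1.18) and Gprasp2 (1.10). Of these, Ndn, Magel2, Dlk1, Usp29 and Nap1l5 are imprinted, while Hap1, Ahi1, Zcchc12, Ngb and Gprasp2 are not known to be and came into the list for their use in hypothalamic and midbrain neurons. Nnat, an imprinted gene of the list, was not higher (672 against 17299 UMIs, -0.29). Against the spots of low cortical score only Hap1 and Ahi1 of 12 measured genes were 2-fold higher (0.733% of all genes), with a list median of 0.75.

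Hap1 shows the spread within the set. Its UMIs per spot ran from 0 to 20 with a median of 4 in the high-score spots, and from 1 to 20 with a median of 7 in the Zic1 patch. It was detected in 146 of 150 high-score spots (97.3%), and in 365 of 500 cortical spots (73.0%), whose median depth was 10873.5 UMIs. With every spot thinned to 1000 UMIs these shares were 52.0% and 17.0%. In CPM, Hap1 was at 807 in the high-score spots, 576 in the 215 tissue spots that touch them, 539 in the 123 spots with at least 3 Tph2 UMIs, 379 in 100 spots scored for dopaminergic genes and 221 in 500 cortical spots. The level was thus highest in the high-score spots among these sets, with the touching spots next.

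The peptide genes themselves did not shift together. Of 39 precursors in the list 19 were measured, with a median of -0.04. Of these, 3 were at least 2-fold higher than in the other tissue spots (2.93% of all genes) and 5 lower (6.43%). Higher were Nxph4 (50 against 274 UMIs, 1.94), Adcyap1 (1.87) and Cbln2 (1.43). Lower were Vip (4 against 1104 UMIs, -3.71), Npy (-3.24), Cort (1 UMI, -2.83, -8.15 to -0.33), Tac2 (3 UMIs, -2.02, -4.31 to -0.46) and Cck (-1.66), which cortical interneurons express. Against the spots of low cortical score 4 of 11 were higher and none lower, with a median of 0.82: Adcyap1, Cbln2 (1.53), Penk and Nxph4 (1.22). In that comparison Adcyap1 passed the minimum count only through its UMIs in the high-score spots. Of 20 genes of dense-core vesicles and peptide processing only Resp18 was 2-fold higher than in the other tissue spots (449 against 4294 UMIs, 1.14, 0.99 to 1.28), with a list median of 0.05. Chga (0.71), Pam (0.63) and Scg2 (0.94) were below 2-fold.

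Transcription factors of the midbrain and diencephalon moved both ways. Of 60 listed, 28 were measured against the other tissue spots, 11 at least 2-fold higher and 5 lower, with a median of 0.57, beside 2.93% and 6.43% of all genes. After Six3, Lhx5 and Foxp2 the higher ones were Ebf3 (2.28), Lef1 (2.10), Zfhx4 (1.96), Zfhx3 (1.95), Onecut2 (1.78), Gata3 (1.70), Barhl1 (1.34) and Ebf1 (1.07). Lhx6 (-2.33), Satb1 (-2.01), Nfix (-1.72), Lhx2 (-1.28) and Nfib (-1.23) were the lower ones. Against the spots of low cortical score 2 of 22 were higher, Six3 and Foxp2 (1.25), and 5 were lower, among them En1 (-2.37) and Zic1 (-1.49). There Foxp2 passed the minimum count only through its UMIs in the high-score spots.

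The dopaminergic list had 1 of 8 higher and 3 lower than in the other tissue spots (median -0.58), and the serotonergic list 1 of 6 higher and 1 lower (median -0.44), in spots already chosen for few Tph2 UMIs. Over all genes 2.93% were higher and 6.43% lower. Slc6a4, the serotonin transporter, had no UMI in the high-score spots. Of the genes for the release and uptake of GABA and glycine 2 of 7 were higher, Slc6a11 and Gad2 (175 against 1548 UMIs, 1.25). Thinned to 1000 UMIs, 13.3% of the high-score spots had Gad2 and 15.3% of the touching spots, so Gad2 was not particular to the set. Slc6a11, the GABA transporter of astrocytes, had 2258 UMIs against 14855 (1.68, 1.61 to 1.74), with 2 to 77 UMIs per spot and a median of 14. It had a UMI in all 150 spots and, at 1000 UMIs per spot, in 86.0% of them, against 29.0% of the cortical spots. Summed, the list of GABA and glycine genes was above the other tissue spots in every patch, with log2 ratios of 1.19 in the Six3, 1.19 in the Zic1, 1.46 in the Cartpt and 1.12 in the Thsd7a patch. Slc6a11 made up 626 of its 990 UMIs in the Six3 patch. The cholinergic list, summed, was at 0.58, 1.20, 3.52 and 1.55 in the same patches, while Slc18a3 had UMIs in the Cartpt patch only. In the Zic1 and Thsd7a patches 5 of its 6 genes had no UMI, so both sums rest on 1 gene each. In the Six3 patch 4 of the 6 had none. Touching spots reached 2134 CPM of Slc6a11 against 2371 in the high-score spots, so it was not particular to the set.

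The patches were then taken one by one against the same other tissue spots, counting a gene where it was at least 2-fold apart with an interval that left out equal levels. The Six3 patch had 376 higher genes (3.44%) and 412 lower (3.77%), and the Zic1 patch 359 higher (3.28%) and 517 lower (4.72%). The Cartpt patch had 380 higher (3.48%) and 369 lower (3.38%), and the Thsd7a patch 339 higher (3.11%) and 192 lower (1.76%). Of the 376 and 359 higher genes, 121 were the same in the Six3 and Zic1 patches, which is 32.2% of the first list and 33.7% of the second. The Six3 and Cartpt patches shared 47 (12.5% and 12.4%), and the Zic1 and Cartpt patches shared 70 (19.5% and 18.4%). In total 31 genes (0.284% of 10898) were higher in all of the Six3, Zic1 and Cartpt patches. Among them were Arhgap36, Lhx5, Gabrq, Adcyap1, Nxph4, Susd2, Zfhx3, Zcchc12, Vat1l, Pbx3, Sparc and Slc6a11. Gabrq had log2 ratios of 2.35 (1.10 to 3.39), 2.46 (1.36 to 3.40) and 3.68 (2.20 to 4.85) in the 3 patches in that order. These rest on few molecules, as Gabrq had 26 UMIs in all high-score spots, and their intervals overlap. Zfhx3 had 1.98, 2.36 and 1.66 in the same order. A further 99 genes (0.908%) were lower in all 3.

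**Figure D4:**
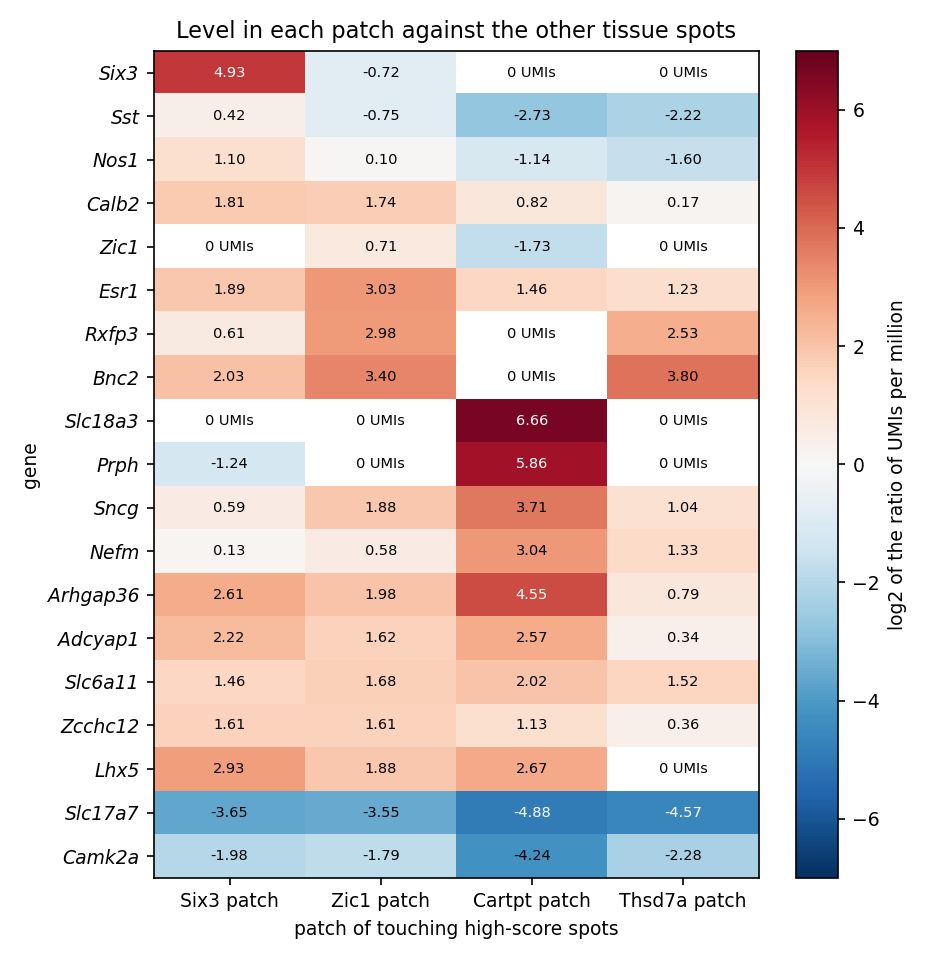
Each cell is the log2 ratio of CPM in a patch over the other tissue spots, for genes of the text, with uncoloured cells marked 0 UMIs where the patch had none. Six3 is at 4.93 in the Six3 patch only, Slc18a3 at 6.66 and Prph at 5.86 in the Cartpt patch only, and Slc17a7 is between -4.88 and -3.55 in all 4 patches.

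The Six3 patch was set apart by Six3. It had 130 UMIs in its 53 spots and 11 in the other 97 high-score spots, a log2 ratio of 4.63 (3.74 to 5.67). Its UMIs per spot ran from 0 to 11 with a median of 2, and 39 of the 53 spots (73.6%) had at least 1, or 30.2% when thinned to 1000 UMIs. Of the 500 cortical spots 0 had a Six3 UMI, which by 3 counts of 500 allows a share of spots with a UMI of up to 0.6%. The 215 spots touching any high-score spot held 144 Six3 UMIs, at 117 CPM against 422 in the patch, so Six3 was not confined to the high-score spots. Those beside the Six3 patch were not counted apart.

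Sst, the precursor of somatostatin, had 356 against 250 UMIs (1.58, 1.34 to 1.82) over the other high-score spots and a median of 5 per spot. Its level was 1157 CPM in the patch, 865 in the other tissue spots (0.42, 0.26 to 0.57) and 1394 in the cortical spots. Tpbg (42 against 26, 1.76), AW551984 (1.47), Gng12 (1.33) and Nos1, the neuronal nitric oxide synthase (111 against 102, 1.19, 0.79 to 1.59), were also higher. Over the other tissue spots the patch was further high in Calb2, the calcium buffer calretinin (213 UMIs, 1.81, 1.61 to 2.01), the dopamine receptor gene Drd2 (15 UMIs, 2.46) and Igsf1 (2.08). The Zic1 patch held 235 Calb2 UMIs. After the same thinning as for Six3, 43.4% of the spots of the Six3 patch and 53.2% of the Zic1 patch had Calb2. Calb2 was thus not particular to the Six3 patch. Zic1 had 0 UMIs in the patch against 53 in the other high-score spots, and Npas1 had 2 against 82 (-4.29, -7.36 to -2.39). Myelin and haemoglobin genes moved with the patch, Mbp at 0.96, Mobp at 0.83 and Hba-a2 at 0.97 over the other high-score spots. Of the 802 Hba-a2 UMIs of the patch 261 lay in 1 spot, and its median spot held 7, against 5 over all high-score spots. Summed, the oligodendrocyte list was at 16659 CPM in the Six3 patch, 7709 in the Zic1 patch and 7127 in the other tissue spots, and the blood list at 4056, 1059 and 3365. The part of myelin and blood in the ratios of other genes was not tested.

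The Zic1 patch was the deeper of the larger patches, with a median of 7541 UMIs per spot against 5898 in the Six3 patch. Zic1, a zinc finger transcription factor, had 42 UMIs in it and 11 in the other high-score spots (2.67, 1.69 to 3.78), but only 17 of its 47 spots (36.2%) had any and 1 spot held 14. Thinned to 1000 UMIs the share was 10.6%, against 0.8% of the cortical spots, where it was 11.4% before thinning. Zic1 was at 118 CPM in the patch and at 156 in the spots of low cortical score, while its log2 ratio over the other tissue spots was 0.71. Its level was thus above the other high-score spots and the other tissue spots, but not above the spots of low cortical score. Npas1 (57 against 27 UMIs, 1.82), Alk (1.69), Zscan25 (1.55), Twf2 (1.38) and Slit1, an axon guidance ligand (166 against 124, 1.16), were higher than in the other high-score spots.

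Over the other tissue spots, the leading genes of the Zic1 patch were BC035947 (3.28), Bnc2 (30 UMIs, 3.40), Insyn2b (3.30), Esr1 (23 UMIs, 3.03, 2.33 to 3.67) and the relaxin-3 receptor gene Rxfp3 (18 UMIs, 2.98, 2.18 to 3.70). The Wnt effector gene Lef1 (2.87), Ngb (2.66) and Ebf3 (2.60) followed. Of the list of peptide neuron genes 11 of 15 were higher here (3.28% of all genes) and none lower (4.72%). In the Six3 patch 11 of 16 were higher (3.44%). Pou4f1 and Ebf2, transcription factor genes below the minimum count and chosen after their values were seen, had 19 and 12 UMIs in the patch. Their sums in all 2335 other tissue spots were 60 and 46. Myoc (2 against 73 UMIs, -4.45, -7.52 to -2.55), Hba-a2 (-1.82) and Gfap (-2.33) were lower than in the other high-score spots.

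The Six3 and Zic1 patches were compared directly over the 1494 genes with enough UMIs. In the Six3 patch 15 genes (1.0%) were at least 2-fold higher and 5 (0.335%) at least 2-fold lower. Six3 (130 against 3 UMIs, 5.65, 4.07 to 7.95), Sst (1.17), Cck (78 against 25, 1.86) and a group of myelin, haemoglobin and glial genes (Hba-a2 1.95, Hbb-bs 1.97, Mbp 1.13, Trf 1.56) were higher. Of the 802 Hba-a2 UMIs of the Six3 patch 261 lay in 1 spot. Vstm2l (-1.26), Slit1 (-1.28), Cabp7 (-1.32) and Pde2a (-1.37) were lower, that is, higher in the Zic1 patch.

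**Figure D5:**
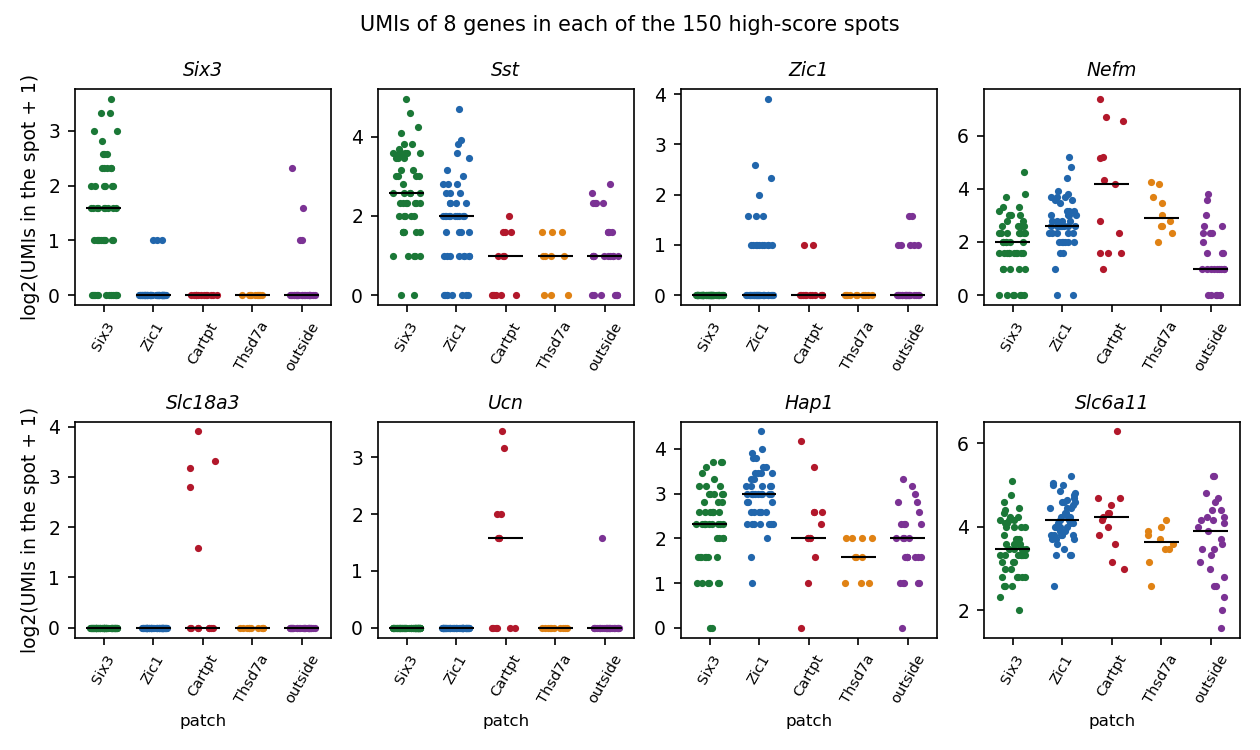
Each point is a high-score spot, placed by patch, with the log2 of its UMIs plus 1 for 8 genes and a black line at the patch median. Six3 is above 0 mainly in the Six3 patch and Slc18a3 in 5 spots of the Cartpt patch, while Hap1 and Slc6a11 overlap between all patches.

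The Cartpt patch was high in cholinergic and neurofilament genes over the other tissue spots, with Slc18a3 at 6.66 (6.07 to 7.22), Prph at 5.86 (5.32 to 6.36), Nefm at 3.04 and Nefh at 2.51. Arhgap36 (4.55), Sncg, the gamma-synuclein gene (3.71), Nxph4 (3.57), Dlk1 (3.42), the GDNF receptor gene Ret (3.46) and the potassium channel gene Kcng4 (3.48) were also high, with ratios above those of Nefm and Nefh. Single spots held much of some of these. Of 46 Dlk1 UMIs 26 lay in 1 spot that had 3 Cartpt UMIs, and without it Dlk1 was at 2.33 (1.61 to 2.96). Without the highest spot of each, Prph was at 4.05 (10 of 41 UMIs left) and Nxph4 at 2.90 (8 of 15 left), in a setting chosen after the data were seen. Nefm had 485 UMIs in its 13 spots and 715 in the other 137 high-score spots (2.66, 2.49 to 2.83). All 3 measured cholinergic genes and 4 of 5 neurofilament genes were higher than in the other tissue spots, beside 3.48% of all genes. Slc18a3, with 84 UMIs in the other tissue spots, passed the minimum count only through the 39 UMIs of this patch. In each of the Six3, Zic1 and Thsd7a patches 2 cholinergic genes were measured. Of these, 1 was higher in the Zic1 patch, 1 in the Thsd7a patch and 0 in the Six3 patch. The neurofilament list of the Cartpt patch summed to 9954 CPM against 1682 in the other tissue spots. Six3 and Lhx2 had 0 UMIs, and Sst (12 UMIs, -2.41) and Camk2a (7 UMIs, -2.39) were lower than in the other high-score spots.

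Within the Cartpt patch the genes fell into parts. Slc18a3 was present in 5 of the 13 spots, with 14, 9, 8, 6 and 2 UMIs, and Prph was present in all 5 of these, with 31 UMIs in the spot that held 14. Those 5 spots held 413 of the 485 Nefm UMIs of the patch and 225 of its 1616 Cartpt UMIs. The highest Cartpt values, 472, 468 and 364, were in 3 other spots, with 0 Slc18a3 and 1, 0 and 0 Prph UMIs. Ucn, the urocortin gene, which is below the minimum count and was chosen after its values were seen, had 30 UMIs in 7 of the spots, 32 in all high-score spots and 15 in the other tissue spots. Those 7 spots held 1550 of the 1616 Cartpt UMIs, and 3 of the 7 also had Slc18a3. Since Cartpt chose these spots and Ucn was picked from them, this is a description of the 13 spots only. Chat, the acetylcholine synthesis enzyme, had 6 UMIs in the patch and 12 in the other tissue spots. Slc18a3 (chr14:32462437-32464850 in GRCm38.p6) lies within the span of Chat (chr14:32408203-32465909), as RefSeq's annotation of that build places them.

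The Cartpt patch also lay at the border of the marked tissue. Rows 60 to 63 are close to the last row of tissue, row 65, and 1434 of its Cartpt UMIs came from spots in row 63. Outside the marked tissue, 5 barcodes touching the patch held 538 further Cartpt UMIs. The 15 other tissue spots touching this patch held 53 Slc18a3 UMIs, up to 20 in a spot, against 39 in the patch, and 53 Cartpt UMIs. The patch as chosen therefore holds part of the Cartpt and part of the Slc18a3 UMIs of this place.

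The Thsd7a patch was the smallest, with 54047 UMIs in 10 spots. Thsd7a (14 against 55 UMIs, 2.08, 1.12 to 2.95), Gng11 (1.86), Klhl9 (1.79), the myelin gene Mog (1.73) and Hapln4, a perineuronal net link protein gene (54 against 319, 1.49, 1.05 to 1.91), were higher than in the other high-score spots. The myelin gene Mag (1.31) and Pvalb, the calcium buffer parvalbumin (1.36), were higher too, and Marcks (1 against 245 UMIs, -3.88, -9.19 to -1.39), Nnat (-2.32) and Sst (-1.84) were lower. Its oligodendrocyte list was at 16541 CPM, close to the 16659 of the Six3 patch. None of the 15 measured genes of the peptide neuron list was higher there by the rule for patches (3.11% of all genes), and 1 was lower (1.76%).

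The choice of spots rested on few molecules. In the 10 spots just inside the threshold the 5 genes together had 7 Cartpt, 23 Baiap3, 17 Tcf7l2, 5 Lhx9 and 9 Tac1 UMIs. When each spot was thinned to 1000 UMIs before scoring, 71 of the 150 spots were chosen again, 19 of them in the Six3 patch, 27 in the Zic1 patch and 10 in the Cartpt patch. The thinned choice had 173 genes at least 2-fold higher and 421 lower than the other tissue spots. With Cartpt left out of the score 115 of 150 spots were chosen again, and only 2 of the 13 spots of the Cartpt patch. With 250 spots in place of 150, the number of patches of at least 10 spots was 2, the larger of 113 spots.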

How the data were processed

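Per the file headers, the deposited counts are whole UMI counts per probe-panel gene and barcode, made by the authors with Space Ranger 3.1.1 and not normalised. The build is mm10, per the submitters' processing notes. No label or header named the probe set or the settings. The count matrix was identical under both samples (2722 barcodes, 21695663 UMIs, 19465 genes), so it was treated as 1 library with the wild-type list of tissue spots.

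UMIs were summed over each set of spots and divided by the set's total. Ratios have exact conditional binomial 95% intervals for Poisson counts, tested on simulated data. They cover counting error only. Genes needed 100 UMIs over both sets, and genes at 0 were set to a floor of 3 counts over the set. The text names the 15 genes with the highest lower bound and the 10 with the lowest upper bound per comparison, leaving out score genes and Tph2. It also names up to 4 genes of each list by size of ratio, and the leading genes of each patch. Other names were chosen after their values were seen, and some genes that the rule names are not reported here. The spots, 38 gene lists and comparisons were chosen with earlier results of these data known, and lists without a printed result are in the tables only. Patches are groups of touching spots, each spot having up to 6 neighbours. The low cortical set was the 1000 other spots of lowest score for 5 cortical genes, Slc17a7, Nrgn, Neurod6 and Tbr1 among them, and the cortical set the 500 of highest. No cell types were deconvolved and no doublet caller was run. Alternatives changed the count minimum, the scaling, the depth, the score, the number and choice of spots and the comparison spots. Python 3.11.15, numpy 2.4.6, scipy 1.17.1, pandas 2.3.3, matplotlib 3.10.9 and, for TMM factors only, edgeR 4.0.16 in R 4.3.3 were used.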

Additional observations from a re-analysis of the deposited data

Results flagged for a closer look

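Barcodes that the wild-type list does not mark as tissue held Cartpt and Baiap3 above their level in tissue. Of the 235 such barcodes, which held 697435 UMIs in all, 28 had Cartpt, with 568 UMIs (814 CPM, against 120 CPM in the tissue spots). In 5 barcodes touching the Cartpt patch there were 538 of them, and 376 were in 1 barcode. Baiap3 had 98 UMIs in 51 of these barcodes (141 CPM, against 85.0 CPM in the tissue spots), with at most 6 in a barcode. The other score genes were lower there than in tissue, Tcf7l2 at 24.4 against 33.6 CPM, Lhx9 at 11.5 against 16.0 and Tac1 at 20.1 against 30.4. Ucn had 7 UMIs and Slc18a3 had 5 there. Of the 187 barcodes among them with at least 500 UMIs, 12 scored at or above the lowest high-score spot.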

How the results depend on the processing

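No paired analysis was possible because both samples hold the same matrix, which is 1 library. Counts of genes at least 2-fold higher or lower moved by over 1.5 times in these settings. A count minimum of 20 gave 848 higher than the other tissue spots, and 255 higher and 831 lower than the spots of low cortical score, with more genes measured. Scoring after thinning to 1000 UMIs gave 173 higher and 421 lower than the other tissue spots. Without touching spots 117 were higher than in the spots of low cortical score. Depth-matched comparison spots, over which fewer genes passed the minimum, gave 57 and 225 against the other tissue spots and 34 and 177 against those of low cortical score. With all barcodes scored, 39 were higher than in the spots of low cortical score. Beyond the effect of the genes measured, the cause was not tested.

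Some directions reversed. Prph against the other tissue spots was at -0.060 with 100 spots (6 UMIs), -2.18 with Cartpt out of the score (2 UMIs) and -2.72 without the Cartpt patch (1 UMI). Slc18a3 was at -2.51 (1 UMI) and, at its floor with 0 UMIs, -0.26 in the latter 2 settings. The cholinergic median was at -2.18 with Cartpt out of the score, by which most of the Cartpt patch was lost. Six3 against the spots of low cortical score was at -1.51 without the Six3 patch. The cortical and hippocampal median against those spots was 0.47 with the thinned score, and its cause was not tested. Of the 50 named values 37 stayed 2-fold in the same direction with the thinned score, and 46 to 50 in each other setting. Of the 12 list medians at least 2-fold, 4 stayed so with the thinned score, 8 without the Zic1 patch and 9 at a minimum of 20, and 7 of 10 with depth-matched spots. The tectal median against the other tissue spots ran from -0.30 (depth-matched) to 2.36 (minimum of 20). Leaving out each patch, leaving out a gene's highest spot in the Cartpt patch and scoring all barcodes were chosen after the data were seen. Scarce score-gene UMIs limit which spots are chosen, and 1 section limits every value to this section.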

Other observations

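Among 14 astrocyte genes Slc6a11 (1.68) and Agt, the angiotensinogen gene (387 against 3587 UMIs, 1.18), were higher than in the other tissue spots and none was lower, with a median of 0.13 beside 0.01 over all genes. Of 8 calcium-binding protein genes Calb2 was higher (532 against 3950 UMIs, 1.50) and 2 were lower. Over all genes 2.93% were higher and 6.43% lower.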
